A study of Mus musculus with 2 samples.

Results

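The cells described here are the cancer cells of Lewis lung carcinoma (LLC) tumors that stood highest in transcripts of late G2 phase and mitosis. They were chosen by a score, the summed level of 6 genes (Cdc20, Cenpf, Plk1, Ccnb2, Hmmr and Cenpa) as a share of all molecules of the cell, and the top 10% of the cancer cells of both libraries together were kept. This gave 1421 mitotic cells of 14210 cancer cells and of 40638 barcodes in all, with 644 from the sGC Ctr library and 777 from the sGC ΔPC library. Levels are given as CPM, the counts of unique molecular identifiers (UMIs, each standing for 1 captured transcript) of a gene in every 1000000 UMIs of the cells considered. Because the kit counts the 3′ end of each transcript once, levels of different genes need no scaling by length.

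LLC is a mouse lung carcinoma cell line, here grown under the skin of C57BL/6 mice. The hosts of the sGC Ctr tumors were Gucy1b1 flox/flox, and those of the sGC ΔPC tumors carried Cspg4-CreERT2 as well as Gucy1b1 flox/flox, so both hosts carried the floxed gene. Tamoxifen was given to all hosts in 5 doses when they were 4 weeks old. Cancer cells were injected at 8 weeks, and the tumors were taken 2 weeks later. The Cspg4 promoter drives the recombinase in pericytes, so the deletion of Gucy1b1, the β1 subunit of the nitric oxide receptor soluble guanylate cyclase (sGC), lies in the host and not in the injected cancer cells. Each condition is 1 library of cells pooled from 3 tumors, which means that condition and library cannot be told apart and that conditions have no replicates. No test was run, between groups of cells either since the score chose them, and every 95% interval covers counting error only. The sGC Ctr library held 15007 barcodes with 487859656 UMIs (median 23337 per barcode) and the sGC ΔPC library 25631 barcodes with 436352742 UMIs (median 8019). The 2 libraries shared 131 barcode sequences among all barcodes, 18 among the cancer cells and 0 among the mitotic cells.

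A dividing cell copies its DNA in S phase, and in G2 it builds up the proteins that will condense, align and separate the chromosomes. Entry into mitosis is driven by cyclin B bound to the kinase Cdk1. Exit needs the anaphase-promoting complex, a ubiquitin ligase that marks cyclin B and securin for destruction. Most genes of this program are transcribed late in the cycle, and many of their promoters hold the cell cycle genes homology region, with the core TTTGAA, and CCAAT boxes, the site of the factor NF-Y. In tumors, the share of cells that express this program is a common measure of proliferation.

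Gucy1b1, the gene deleted in the host pericytes, was looked at first, to check the labels. It had 80 UMIs in all barcodes of sGC Ctr, 0.164 CPM (0.130 to 0.204), and 42 in sGC ΔPC, 0.0963 CPM (0.0694 to 0.130). The mitotic cells held 0 and 2 of these UMIs, and the count of 0 allows a level of up to 0.064 CPM. The targeted gene was thus near 0 in the mitotic cells of both libraries. Cspg4, whose promoter drives the recombinase, was at 13 and 14 UMIs in the mitotic cells, against 2326 and 1376 in all barcodes.

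A cancer cell was a barcode with at least 5000 UMIs, under 10% mitochondrial UMIs, at least 1000 CPM of Rhox5, Krt8, Krt18 and Hmga2 together (a homeobox gene, a keratin pair and a chromatin protein of these tumor cells) and under 300 CPM of the immune genes Tyrobp, Fcer1g and Ctss. This left 6106 cells of sGC Ctr and 8104 of sGC ΔPC. The limit on immune genes alone took out 378 barcodes (5.83%) of sGC Ctr but 2870 (26.2%) of sGC ΔPC that had passed the other limits. The limit of the top 10% fell at 799 CPM, which corresponds to 4 UMIs (3.99) in a cell with 5000. The last cell inside stood at 798.6 CPM and the first outside at 798.2 CPM, and 191 mitotic and 213 other cells lay within 10% of the limit. The mitotic cells are thus a range cut from a score, and whether they form a separate group was not tested. Their score had a median of 1248 CPM in sGC Ctr (5th to 95th percentile 834 to 2518) and of 1129 CPM in sGC ΔPC (831 to 2035). Granulocyte barcodes, which do not divide, were looked at for RNA that floats free in the suspension. They had at least 1000 UMIs, at least 10000 CPM of S100a8 and S100a9 together and under 1000 CPM of the cancer genes of the rule. They held the 6 genes at 97.4 CPM in sGC Ctr (326 barcodes, median 2141.5 UMIs) and at 113 CPM in sGC ΔPC (364 barcodes, median 2416 UMIs). A UMI of these genes was in 19.6% and 22.5% of them. The limit on cancer genes leaves out barcodes with much free cancer RNA, so these levels may lie under the true background.

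**Figure D1:**
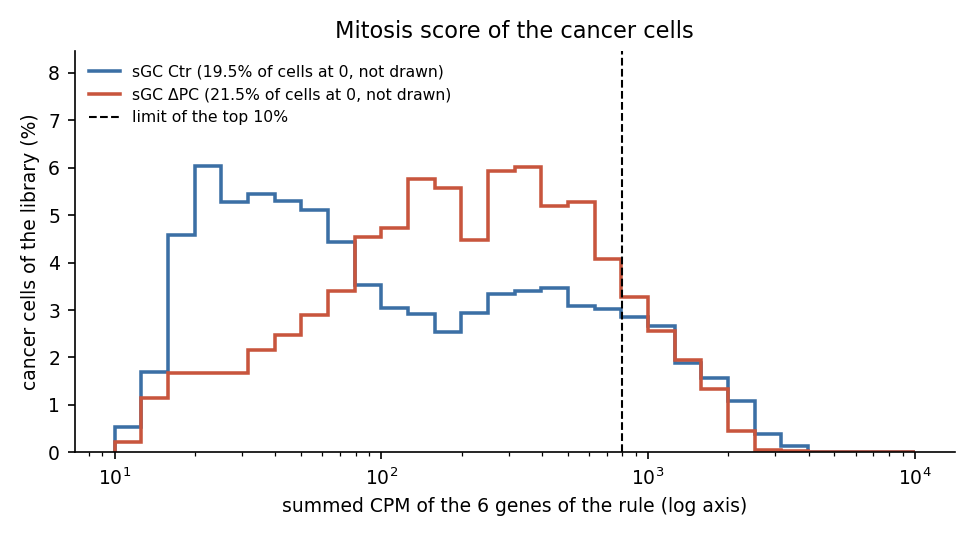
Summed CPM of the 6 genes of the rule (x axis, log scale) against the percentage of the cancer cells of each library (y axis), as outlines for sGC Ctr and sGC ΔPC, with the limit of the top 10% dashed. The 19.5% and 21.5% of cells without a UMI of these genes are not drawn, and between 100 CPM and the limit the sGC ΔPC outline lies above that of sGC Ctr.

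The 6 genes of the rule stood at these levels because they chose the cells, so their values are a description. Cenpf, a kinetochore protein, was the most abundant, with 564 CPM in the mitotic cells of sGC Ctr and 523 in those of sGC ΔPC, against 56.3 and 70.5 in the other cancer cells. Cenpa, the histone H3 variant of the centromere, followed with 273 and 242 CPM, against 35.0 and 42.0. Cdc20, which activates the anaphase-promoting complex, was at 188 and 165 CPM, against 18.5 and 26.3. Hmmr, a protein of the spindle, Ccnb2, cyclin B2, and Plk1, the Polo-like kinase of mitotic entry, came next. Hmmr was at 136 and 132 CPM, Ccnb2 at 129 and 121 CPM, and Plk1 at 108 and 100.1 CPM. Cenpf contributed most, and it had more UMIs than each of the other 5 genes in 78.6% of the mitotic cells of sGC Ctr and in 63.6% of those of sGC ΔPC. Cenpa led in 12.1% and 13.8%, and Cdc20 in 4.97% and 5.15%. All 6 genes had a UMI in 91.9% of the mitotic cells of sGC Ctr but in 59.97% of those of sGC ΔPC, and these shares were 5.28% and 2.45% once every cell was thinned to 5000 UMIs.

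Since the promoters of such genes are known for shared motifs, the windows of the 6 genes were read from RefSeq (GRCm38.p6, the mm10 assembly), from 250 bases before to 50 after the start of each gene. They are shown from 150 bases before to 30 after the start, 5′ to 3′ on the strand of the gene, and the capitals mark TTTGAA and CCAAT or their reverse complements TTCAAA and ATTGG. All 6 genes had 1 window, and they lie on chromosomes 4, 1, 7, 9, 11 and 5.
Cdc20, chr4:118437314-118437493, minus strand: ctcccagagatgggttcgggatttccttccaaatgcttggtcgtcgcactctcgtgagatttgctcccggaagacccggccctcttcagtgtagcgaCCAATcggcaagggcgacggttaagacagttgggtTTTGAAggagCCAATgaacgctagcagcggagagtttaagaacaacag
Cenpf, chr1:189688057-189688236, minus strand: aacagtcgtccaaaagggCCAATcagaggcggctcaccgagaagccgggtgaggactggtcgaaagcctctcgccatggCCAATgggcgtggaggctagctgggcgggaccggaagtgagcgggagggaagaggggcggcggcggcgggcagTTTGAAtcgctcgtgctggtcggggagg
Plk1, chr7:122159285-122159464, plus strand: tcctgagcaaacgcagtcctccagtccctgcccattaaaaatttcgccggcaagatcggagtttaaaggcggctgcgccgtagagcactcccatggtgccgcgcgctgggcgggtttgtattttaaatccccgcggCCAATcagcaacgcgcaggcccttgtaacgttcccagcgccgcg
Ccnb2, chr9:70421525-70421704, minus strand: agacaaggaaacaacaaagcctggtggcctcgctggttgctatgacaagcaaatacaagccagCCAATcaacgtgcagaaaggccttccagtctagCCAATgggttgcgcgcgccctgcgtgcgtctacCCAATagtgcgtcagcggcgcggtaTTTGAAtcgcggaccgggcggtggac
Hmmr, chr11:40733408-40733587, minus strand: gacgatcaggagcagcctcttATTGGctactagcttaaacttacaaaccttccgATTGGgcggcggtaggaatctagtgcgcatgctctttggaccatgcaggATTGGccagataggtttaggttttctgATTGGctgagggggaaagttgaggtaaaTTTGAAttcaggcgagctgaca
Cenpa, chr5:30666736-30666915, plus strand: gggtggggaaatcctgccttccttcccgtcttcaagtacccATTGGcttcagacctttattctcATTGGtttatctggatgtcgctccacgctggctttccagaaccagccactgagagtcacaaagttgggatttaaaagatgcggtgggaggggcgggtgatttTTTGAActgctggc

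Every one of the 6 windows held both motifs. With positions counted from 1 at the start of the gene and -1 just before it, TTTGAA began at -18 in Cdc20, at 3 in Cenpf, at 5 in Ccnb2 (with a further match at -167), at 9 in Hmmr and at 17 in Cenpa. That of Plk1 began at 31, just past the stretch shown. CCAAT occurred 5 times in the Hmmr window, 3 times in Ccnb2, 2 times each in Cdc20, Cenpf and Cenpa, and 1 time in Plk1. Over all 32851 windows of the table, 17.9% held TTTGAA, 37.4% CCAAT and 6.95% both, on either strand and with overlapping matches counted singly. A match is a run of letters and not a measured binding site.

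The same letters were common in the promoters of the mitosis genes that the rule did not use. The 5 lists of such genes (regulators around Cdk1, centromere and kinetochore, anaphase-promoting complex, spindle and cytokinesis, chromosome structure) held 122 genes, of which 84 had a single window. TTTGAA was in 50 of these (59.5%), CCAAT in 58 (69.0%) and both in 41 (48.8%), while among the 8242 genes measured in both libraries with a single window the shares were 12.02%, 39.6% and 5.10%. TTTGAA matches lay close to the start: 25 per 100 mitosis genes in the last 50 bases before it and 29.8 in the first 50 after it, compared with 2.97 and 2.24 per 100 over all 22862 genes with a single window. The chromosome structure list had TTTGAA in 11 of 13 windows (84.6%), spindle and cytokinesis in 20 of 27 (74.1%), the centromere list in 9 of 19 (47.4%), the regulators around Cdk1 in 6 of 14 (42.9%) and the list of the anaphase-promoting complex in 4 of 11 (36.4%). The list of G1/S and replication genes, which are transcribed earlier in the cycle, had TTTGAA in 4 of 28 (14.3%) and CCAAT in 17 of 28 (60.7%). Top2a, which untangles DNA, had 2 TTTGAA and 6 CCAAT matches, Cdk1 had 2 and 3, and Aspm 1 and 3, whereas Birc5 and Nusap1 had 0 of both and Ccnb1 0 and 2. Mitosis genes with both motifs stood a median of 1.99 (sGC Ctr) and 1.74 (sGC ΔPC) above the other cancer cells on the log2 scale (41 genes), those with TTTGAA alone 2.16 and 1.7 (9 genes), those with CCAAT alone 1.86 and 1.60 (17 genes), and those with neither 1.72 and 1.37 (17 genes). The interquartile ranges of genes with both (1.72 to 2.54 in sGC Ctr) and with neither (0.55 to 2.23) overlapped.

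Mitotic cells were then compared with the other cancer cells of their library as the log2 ratio of CPM from summed UMIs, over genes with at least 50 UMIs. Since cells were selected on transcripts of the same program, these ratios describe what travels with the score. The 6 genes of the rule had a median ratio of 3.33 in sGC Ctr and 2.70 in sGC ΔPC, and they are left out of all counts that follow. Of 13945 genes in sGC Ctr, 353 (2.53%) were at least 2-fold higher in the mitotic cells and 176 (1.26%) at least 2-fold lower. In sGC ΔPC, 295 of 13866 (2.13%) were higher and 242 (1.75%) lower. In both libraries at once 208 of 13690 genes (1.52%) were higher and 50 (0.365%) lower. The 50 became 10 with cells thinned to 5000 UMIs, 23 for the top 20% and 26 at a minimum of 200 UMIs per gene. The median over all genes was 0.09 in sGC Ctr and 0.10 in sGC ΔPC. Of the 122 mitosis genes 99 were at least 2-fold higher in sGC Ctr, 89 in sGC ΔPC and 89 in both, with medians of 1.91 and 1.60 and with 0 at least 2-fold lower. Their summed level was 15741 CPM in mitotic and 5419 CPM in other cells of sGC Ctr, and 14852 and 6054 CPM in sGC ΔPC. The rule did not use these genes, but they belong to the program that chose the cells. Their levels thus describe the cells and are no separate support for the label.

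**Figure D2:**
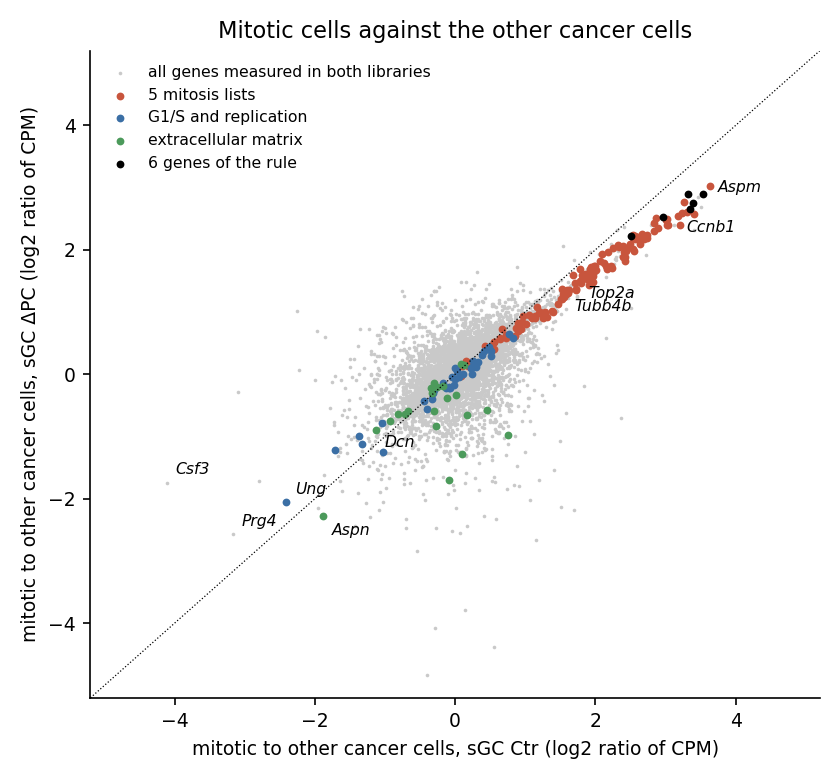
Log2 ratio of CPM of the mitotic to the other cancer cells in sGC Ctr (x axis) and sGC ΔPC (y axis), with a point for each gene measured in both libraries and colors for 4 gene groups. The mitosis lists run along a line just under the dotted diagonal, with medians of 1.91 and 1.60, and Prg4, Csf3, Ung and Aspn lie at the opposite end.

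Among the regulators around Cdk1, 19 of 24 genes were at least 2-fold higher in both libraries. Ccnb1, cyclin B1, stood at 121 CPM in the mitotic and 13.4 in the other cells of sGC Ctr, and at 116 and 19.8 in sGC ΔPC, log2 ratios of 3.18 (3.12 to 3.24) and 2.55 (2.49 to 2.61). Cdk1 itself was at 199 and 59.9 CPM in sGC Ctr and at 191 and 75.01 CPM in sGC ΔPC, ratios of 1.73 and 1.35. Mitotic and other cells were thus closer in the kinase than in its cyclin. Cks2 and Cks1b, small subunits of Cdk1, had ratios of 1.97 and 1.49, and of 1.14 and 0.90. Wee1, the kinase that holds Cdk1 inactive, had ratios of 0.68 and 0.73.

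For the centromere, the kinetochore and the passenger complex 20 of 27 genes were at least 2-fold higher in both libraries. Cenpe, the kinesin of the kinetochore, was at 223 and 23.2 CPM in mitotic and other cells of sGC Ctr and at 205 and 29.9 CPM in sGC ΔPC, ratios of 3.26 and 2.78. Birc5, survivin, the anti-apoptotic member of the passenger complex, was at 334 and 71.3 CPM in sGC Ctr and at 282 and 84.4 CPM in sGC ΔPC, ratios of 2.23 and 1.74. Cdca8, borealin of the same complex, had ratios of 2.43 and 1.98. Genes of the list with small ratios were Bub3, a checkpoint protein, with 0.90 and 0.69, and Zwint, with 0.08 and -0.02.

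The list of the anaphase-promoting complex was divided. Ube2c, the ubiquitin-conjugating enzyme that starts chains for the complex, stood at 638 CPM in mitotic and 78.8 CPM in other cells of sGC Ctr, and at 589 and 111 CPM in sGC ΔPC, with ratios of 3.02 (2.99 to 3.04) and 2.40 (2.38 to 2.43). Ube2s, which lengthens the chains, had ratios of 1.28 and 1.00, Cdca3 of 2.40 and 1.97, securin (Pttg1) of 1.94 and 1.61, and separase (Espl1) of 2.25 and 2.02. The subunits of the complex had smaller ratios, with 0.10 and 0.13 for Cdc16, 0.16 and 0.21 for Anapc11, and 0.42 and 0.46 for Anapc1. In all, 6 of the 13 genes were at least 2-fold higher in both libraries.

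Genes of kinesins, the spindle and cytokinesis had the highest median, 2.54 in sGC Ctr and 2.09 in sGC ΔPC, with 33 of 35 at least 2-fold higher in both. Aspm, a protein of the spindle poles, had the largest ratio of all genes named here, with 112 CPM in mitotic and 9.04 in other cells of sGC Ctr and 102 and 12.5 CPM in sGC ΔPC, ratios of 3.63 (3.57 to 3.70) and 3.03 (2.96 to 3.10). Prc1, which bundles the microtubules of the midzone, had ratios of 2.86 and 2.51. Tpx2, the activator of Aurora A, had 2.83 and 2.43, and Nusap1 3.01 and 2.48. Pif1, a DNA helicase, Sapcd2, Gas2l3, which links actin to microtubules, Prr11, the centrosome kinase Nek2, the phosphatases Cdc25c and Cdkn3, Fam83d and Depdc1a made up the rest of the 12 highest together with Cenpe and Ccnb1. Their ratios ran from 3.18 to 3.51 in sGC Ctr and from 2.57 to 2.85 in sGC ΔPC without Aspm, Cenpe and Ccnb1.

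Among the most abundant genes of chromosome structure the ratios varied. Hmgb1, a chromatin protein, was at 1649 CPM in mitotic and 847 in other cells of sGC Ctr and at 1615 and 899 CPM in sGC ΔPC, ratios of 0.96 and 0.84. H2afz, the histone variant H2A.Z, had ratios of 1.00 and 0.81, Hmgb2 of 1.96 and 1.57, and Top2a of 1.78 and 1.5. In this list 11 of 23 genes were at least 2-fold higher in both libraries. The 12 tubulin genes, the material of the spindle, lay above the other cells by a median of 0.61 and 0.47, and Tubb4b alone passed 2-fold, at 488 CPM against 164 in sGC Ctr and at 423 against 174 CPM in sGC ΔPC. Of 13 replication histones 12 lay above 0 in each library (64.2% and 65.2% of all genes), with medians of 0.69 and 0.59, but their transcripts mostly lack the poly(A) tail that the kit captures.

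The mitotic cells were also set apart by the gene of the score with the most UMIs, as a description, since the same genes chose the cells. Cells led by Cenpf, Cenpa or Cdc20 (506, 78 and 32 in sGC Ctr, and 494, 107 and 40 in sGC ΔPC) had different levels of genes outside the rule. Top2a stood at 666 CPM in the cells led by Cenpf, 286 in those led by Cenpa and 111 in those led by Cdc20 in sGC Ctr, and at 660, 200.4 and 205 CPM in sGC ΔPC. Mki67, the Ki-67 antigen of dividing cells, stood at 326, 166 and 148 CPM in sGC Ctr and at 319, 157 and 136 CPM in sGC ΔPC. Ccnb1 was at 128, 94.2 and 85.1 CPM, and at 123, 86.3 and 60.9 CPM. Of these 3 sets the cells led by Cenpf held the most Top2a, Mki67 and Ccnb1 in both libraries. Ccna2, cyclin A2, did not follow this order, with 94.2, 76.3 and 79.3 CPM in sGC Ctr but 82.8, 72.8 and 102 CPM in sGC ΔPC. Cells with a tie for the lead (3.11% and 13.0%) are left out here. The cells led by Cenpf were also the deepest of the 3 sets, with medians of 75520, 53214.5 and 49594 UMIs in sGC Ctr and 47119.5, 15066 and 12399 UMIs in sGC ΔPC, and the part of depth was not tested.

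Across the range of the score the mitosis genes stood higher in each band than in the one before. Their summed level was 2753 CPM in the cells of sGC Ctr with a score of 0, 3383 up to 100 CPM, 6219 between 100 and 200 CPM, 10962 between 400 CPM and the limit, and 17830 in cells of 1200 CPM or more. In sGC ΔPC the same bands held 3214, 3614, 6239, 10336 and 16928 CPM. Among these bands, which are of unequal width, the widest relative gap between neighbours lay at 100 CPM in both libraries. The cells under and over 100 CPM also differed in depth, with medians of 51378 and 56058.5 UMIs in sGC Ctr and of 46656 and 15611 UMIs in sGC ΔPC. Whether the gap marks a boundary was not tested. The 40 genes of G1/S and DNA replication behaved otherwise. They peaked at a score of 200 to 400 CPM, with 2448 CPM in sGC Ctr and 2018 in sGC ΔPC, and stood at 1368 and 1384 CPM in the cells of 1200 CPM or more.

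**Figure D3:**
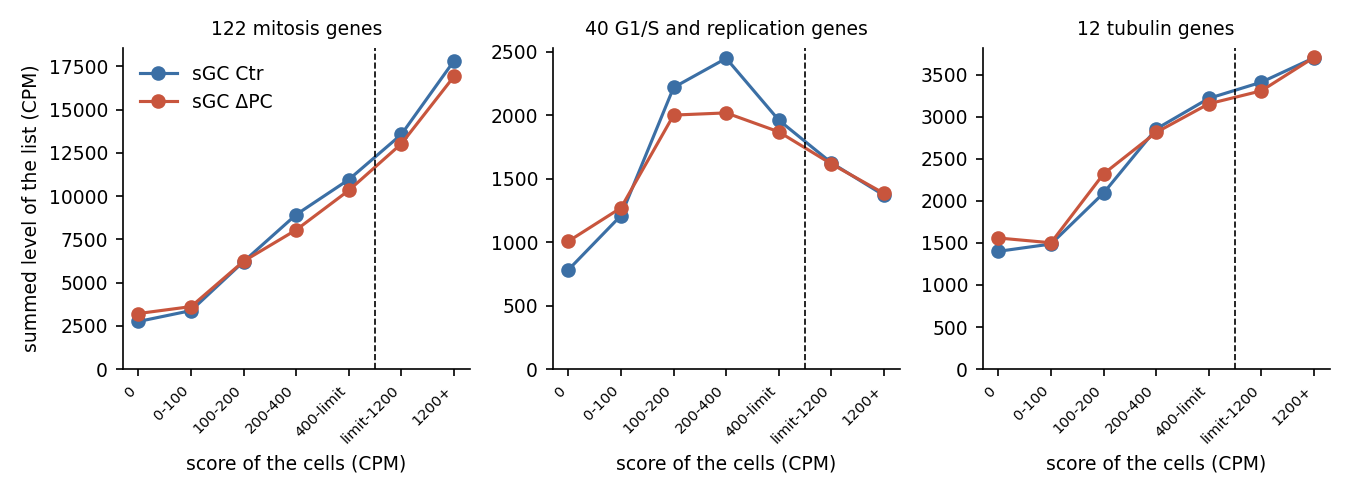
Summed CPM (y axes, each from 0) of 122 mitosis genes, 40 genes of G1/S and replication and 12 tubulin genes in cancer cells grouped by their score (x axes, CPM), for both libraries, with the limit dashed. The mitosis genes climb to the right, and so do the tubulin genes apart from the first step in sGC ΔPC (1558 to 1502 CPM). The G1/S genes peak at 200 to 400 CPM (2448 and 2018 CPM) and are lower past the limit.

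Between mitotic and other cells the G1/S list had a median of 0.00 in sGC Ctr and of -0.05 in sGC ΔPC, but its members parted. Those at least 2-fold lower in sGC Ctr were Ung, Ccne1, Cdc6, Ccne2, E2f1 and Chaf1b, which make 6 of 40, and 4 of them (Ung, Ccne1, Cdc6 and Chaf1b) were so in sGC ΔPC. Ung, which removes uracil from DNA, was at 2.18 CPM in mitotic and 11.6 in other cells of sGC Ctr and at 2.54 and 10.6 CPM in sGC ΔPC, ratios of -2.40 (-2.71 to -2.13) and -2.05 (-2.39 to -1.75). Cyclin E1 (Ccne1), which starts S phase, was at 4.05 and 13.3 CPM in sGC Ctr and 5.97 and 13.9 CPM in sGC ΔPC, and Cdc6, which loads the replicative helicase, had ratios of -1.33 and -1.11. By contrast thymidine kinase (Tk1) and ribonucleotide reductase (Rrm1) were higher in the mitotic cells, with ratios of 0.82 and 0.58, and of 0.76 and 0.65. The helicase genes Mcm2 to Mcm7 ran from -0.40 to 0.03 in sGC Ctr and from -0.56 to 0.06 in sGC ΔPC.

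The mitotic cells were also set beside the cancer cells highest in G1/S transcripts. When the top 10% by a score of 6 G1/S genes (Mcm3, Mcm5, Mcm6, Pcna, Ccne2 and Ung, at least 695 CPM) were taken from the same cells, 30 cells were in both groups, 2.11% of each. Mitotic cells outside that group held 122 CPM of Ccnb1 and 10.0 CPM of Ccne1 and Ccne2 together in sGC Ctr, and G1/S cells outside the mitotic group 17.9 and 115 CPM. In sGC ΔPC these values were 117 and 14.3 CPM against 17.5 and 106 CPM. Ccnb1 is outside both scores, but Ccne2 is part of the G1/S score, so the level of cyclin E in the G1/S cells was partly set by their choice. Replication histones summed to 1238 CPM in mitotic and 1600.3 CPM in G1/S cells of sGC Ctr, and to 1172 and 1497 CPM in sGC ΔPC. Top2a was at 592 CPM in mitotic and 437 CPM in G1/S cells of sGC Ctr. A score of 6 other mitosis genes (Ccnb1, Cdk1, Top2a, Tpx2, Ube2c and Birc5) picked 822 of the 1421 mitotic cells again (57.8% of each group).

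Of the programs outside the cycle, immediate early, hypoxia and matrix genes had medians under 0 in the mitotic cells, and 1 gene of these lists, Aspn, was at least 2-fold lower in both libraries. Of all genes 35.8% in sGC Ctr and 34.8% in sGC ΔPC lay under 0. All 14 immediate early genes, which respond to growth factors and stress, lay under 0 in both libraries, with medians of -0.56 in sGC Ctr and -0.41 in sGC ΔPC. Fos was at 37.5 CPM in mitotic and 71.3 in other cells of sGC Ctr and at 73.4 and 110 CPM in sGC ΔPC, and Egr1 at 19.3 and 38.6 CPM and at 35.0 and 50.3 CPM. In the list of hypoxia and glycolysis, 21 of 22 genes in sGC Ctr and 22 of 22 in sGC ΔPC were at or under 0, with medians of -0.43 and -0.34. The glycolytic enzymes hardly differed (Gapdh -0.01 and -0.10, Ldha -0.04 and -0.11), and the hypoxia targets Ndrg1 (-0.96 and -0.96), Slc2a1, the glucose transporter (-0.73 and -0.62), and Ankrd37 (-0.73 and -0.79) had larger differences. Of the 22 matrix genes 15 in sGC Ctr and 20 in sGC ΔPC lay at or under 0. Col3a1, collagen III, was at 551 and 900.2 CPM in mitotic and other cells of sGC Ctr, ratio -0.71, with -0.64 in sGC ΔPC. Fn1, fibronectin, had ratios of -0.81 and -0.63, and Dcn, decorin, of -1.13 and -0.90. The 8 fibroblast markers were lower as well, with medians of -0.48 in sGC Ctr and -0.61 in sGC ΔPC, and 2 and 0 of them above 0. They summed to 116 CPM in mitotic and 163 CPM in other cells of sGC Ctr, and to 122 and 166 CPM in sGC ΔPC. Their part in the difference of the matrix genes was not tested.

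Among the 12 genes that stood lowest in both libraries were Prg4, Ung, Aspn, Csf3, Igf2, Nos2, Bmf, Cryab, Hgf, Cxcl14 and Cebpd. Prg4, the lubricant proteoglycan, was at 0.47 CPM in mitotic and 4.30 in other cells of sGC Ctr and at 0.91 and 5.49 CPM in sGC ΔPC, ratios of -3.16 (-3.88 to -2.59) and -2.57 (-3.17 to -2.08). It was carried by 12 and 21 of the mitotic cells. Aspn, a small proteoglycan, had ratios of -1.88 and -2.28. Csf3, the granulocyte growth factor, had 5 UMIs in the mitotic cells of sGC Ctr and 17 in those of sGC ΔPC, and its ratios of -4.11 and -1.74 rest on these. Among the other cancer cells, the 5 highest held 42.1% of its UMIs in sGC Ctr and 33.3% in sGC ΔPC. The same shares were 59.5% and 22% for Cxcl14, 29.0% and 17.4% for Nos2 and 26.5% and 28.1% for Prg4. They were 5.18% and 5.97% for Aspn and 1.88% and 2.15% for Ung. Cebpd, a transcription factor induced by cytokines, was the most abundant of the 12 in the mitotic cells, at 9.62 and 24.2 CPM in sGC Ctr and 15.1 and 35.6 CPM in sGC ΔPC. Among regulators of G1, Cdkn1a (p21) had ratios of -0.16 in both libraries, and Cdkn2d, an inhibitor of Cdk4, 1.14 and 0.86.

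Mitotic cells held more RNA molecules than the other cancer cells of their library. Their median was 69791 UMIs in sGC Ctr against 51649 in the other cancer cells, a ratio of 1.35, and 24499 against 20647 in sGC ΔPC, a ratio of 1.19. This was not particular to them in sGC Ctr, where the G1/S cells had a median of 63371 UMIs and the cells with a score from 400 CPM to the limit one of 70179.5 UMIs. In sGC ΔPC the G1/S cells had a median of 18190.5 UMIs and the cells with a score from 400 CPM to the limit one of 21534 UMIs. The cells of sGC ΔPC with a score above 0 and up to 100 CPM had a median of 46656 UMIs. A cell can enter that band only if 1 UMI is worth under 100 CPM in it, so the band itself selects deep cells. At a common 5000 UMIs the mitotic cells still showed slightly more genes than the other cancer cells, with medians of 1821 against 1689.5 in sGC Ctr and 1768 against 1674 in sGC ΔPC (without thinning 7083 against 6112.5, and 4513 against 3973). Depth differed far more between the libraries. Cells under 20000 UMIs made up 2.33% of the mitotic cells of sGC Ctr and 44.5% of those of sGC ΔPC. Scores that mark 2 cells in 1 droplet (Scrublet, 0.2 or more) were found in 2 of 644 and 1 of 777 mitotic cells (0.311% and 0.129%), and in 1.24% and 0.287% of the other cancer cells. Of all scored barcodes 4.53% in sGC Ctr but 0.511% in sGC ΔPC reached this limit, and the automatic call found 0 in sGC ΔPC. The percentages of sGC ΔPC thus say little about doublets.

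The share of mitotic cells among the cancer cells was 10.5% in sGC Ctr (9.79% to 11.3%) and 9.59% in sGC ΔPC (8.96% to 10.2%), with overlapping intervals. The order of the libraries was not stable. It was 12.8% and 12.7% with all cells thinned to 5000 UMIs (784 and 1031 cells, more than the top 10% since many tie at the limit of 800 CPM), 5.80% and 4.39% for the top 5%, and 18.2% and 21.3% for the top 20%. By depth the share was highest in the cells above 80000 UMIs, with 23.03% (20.5% to 25.7%) in sGC Ctr and 19.8% (17.1% to 22.9%) in sGC ΔPC, and between 4.96% and 10.6% in all other bands. From 40000 to 80000 UMIs it was 9.14% (8.22% to 10.1%) and 7.68% (6.56% to 8.92%), and from 20000 to 40000 UMIs 4.96% (3.85% to 6.28%) and 9.17% (7.69% to 10.8%).

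**Figure D4:**
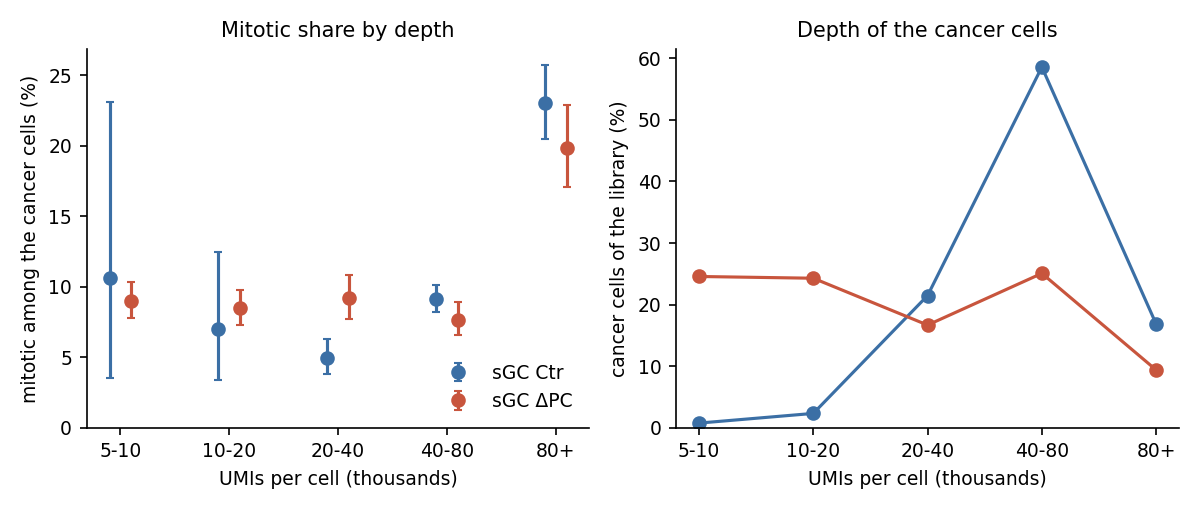
Left, mitotic cells as a percentage of the cancer cells (y axis, points with exact binomial 95% intervals) by UMIs per cell (x axis, in units of 1000). Right, the percentage of each library's cancer cells in each band of depth. Both libraries have their highest share above 80000 UMIs (23.03% and 19.8%), and 58.6% of the sGC Ctr cells but 25.1% of the sGC ΔPC cells lie between 40000 and 80000 UMIs.

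The libraries differed more under the limit than above it. Cells with a score from 100 CPM up to the limit were 27.7% (26.6% to 28.9%) of the cancer cells in sGC Ctr and 47.0% (45.9% to 48.1%) in sGC ΔPC. A single UMI is worth 200 CPM in a cell of 5000 UMIs, so depth enters this share. At a common 5000 UMIs it was 27.0% and 39.7%, and in cells of 40000 to 80000 UMIs 26.6% (25.2% to 28.1%) and 37.2% (35.0% to 39.3%). At the top the order turned: cells of 1200 CPM or more were 5.65% in sGC Ctr and 4.28% in sGC ΔPC, and 4.78% (4.11% to 5.53%) and 3.25% (2.52% to 4.11%) in the window of 40000 to 80000 UMIs. Whether this spread of scores belongs to the condition or to the library cannot be told apart.

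Finally, the mitotic cells of sGC ΔPC were compared with those of sGC Ctr. The common limit holds both sets to the same floor of the score, so their levels of mitosis genes are not independent of the rule. Of 12006 genes 109 (0.908%) were at least 2-fold higher in sGC ΔPC and 18 (0.15%) at least 2-fold lower, with a median of 0.01. These counts depended on the settings, with 31 to 243 genes higher and 2 to 66 lower. In the other cancer cells these counts were 466 of 14741 (3.16%) and 17 (0.115%), with a median of 0.02. Of all genes 53.7% lay above 0 in the mitotic and 55.7% in the other cells. None of the 122 mitosis genes differed 2-fold in the mitotic cells; 20 lay above 0 and their median was -0.07, with a range of -0.27 to 0.24. Ube2c was at 638 and 589 CPM, Top2a at 596 and 585 CPM, and Birc5 at 334 and 282 CPM in sGC Ctr and sGC ΔPC. In the other cancer cells 114 of the 122 lay above 0, with a median of 0.24, and this was 0.04 in cells of 40000 to 80000 UMIs, where the median of the mitotic cells was -0.14.

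**Figure D5:**
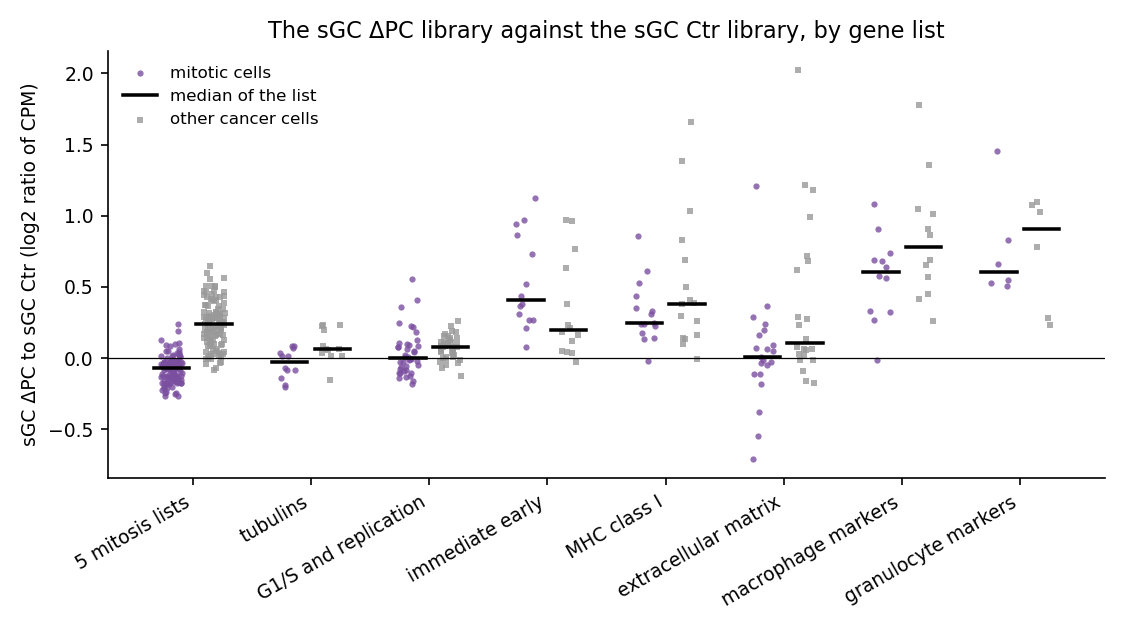
Log2 ratio of CPM of sGC ΔPC to sGC Ctr (y axis) for the genes of 8 lists (x axis), in mitotic cells (circles) and in the other cancer cells (squares), with the median of each as a bar. The mitosis lists center on -0.07 in mitotic and 0.24 in other cells, and the medians of the immediate early, macrophage and granulocyte lists lie above 0 in both.

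Immediate early genes stood higher in the mitotic cells of sGC ΔPC, 14 of 14 above 0 (53.7% of all genes) with a median of 0.41. Of these 14 genes 1 was past 2-fold (0.908% of all genes). Fosb, a partner of Jun, was at 38.0 CPM in sGC Ctr and 82.8 CPM in sGC ΔPC, a ratio of 1.12 (1.04 to 1.21), and of 1.19 in cells with at least 20000 UMIs. Fos had a ratio of 0.97, Dusp1, a phosphatase of MAP kinases, of 0.94, and Egr1 of 0.86, whereas Jun went from 486 to 657.5 CPM, a ratio of 0.44. In the other cancer cells the median of the list was 0.20 and Fosb had 0.96. At 40000 to 80000 UMIs the list had a median of 0.37 in the mitotic and 0.30 in the other cells. These genes also respond to the handling of tissue, and the part of dissociation was not tested. Of 15 genes of MHC class I presentation 14 lay above 0, with a median of 0.25, and in the other cancer cells 15 of 16, with a median of 0.38 (of all genes 53.7% and 55.7% lay above 0). In cells of 40000 to 80000 UMIs the median of the mitotic cells was 0.06 (14 genes) and that of the other cells 0.32. B2m, the light chain of the complex, went from 294 to 375 CPM, a ratio of 0.35.

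The 12 genes highest in sGC ΔPC against sGC Ctr began with Ccl3. This chemokine of macrophages was at 1.34 CPM in sGC Ctr and 4.48 CPM in sGC ΔPC, a ratio of 1.73 (1.30 to 2.19). The MHC class II genes H2-Eb1 and H2-Aa had ratios of 1.28 and 1.18, and Srgn, a proteoglycan of secretory granules, and Pirb, a receptor of myeloid cells, 1.28 and 1.33. Of the macrophage markers 12 were measured, 11 lay above 0 with a median of 0.61, 1 of them past 2-fold (Cd74, from 10.8 to 22.96 CPM), against 53.7% and 0.908% of all genes, and none was at 0 UMIs. Their summed level was 178 CPM in the mitotic cells of sGC Ctr and 292 CPM in those of sGC ΔPC, and 193 and 414 CPM in the other cancer cells, with Lyz2 the most abundant (74.9 and 140.5 CPM in mitotic cells). In the mitotic cells of sGC ΔPC this sum was 579 CPM between 5000 and 10000 UMIs and 216 CPM above 80000. Their part in the difference was not tested.

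Also among these 12 were Lars2, AY036118, Ankmy1, Fry, Thbs1 and Fxyd4. Lars2 went from 78.0 to 236 CPM (1.60) and AY036118 from 169 to 464 CPM (1.46), and both are loci that can collect reads of ribosomal RNA, so their values are uncertain. The ratios were 1.25 and 0.98 in cells with at least 20000 UMIs. Thbs1, thrombospondin 1, was at 4.22 and 9.75 CPM, a ratio of 1.21 (0.95 to 1.47), with 1.22 in the other cancer cells, and 1 cell held 24.5% and 5 cells 39.1% of its UMIs in the mitotic cells of sGC ΔPC. Fry, by contrast, had a ratio of 1.27 in mitotic and 0.10 in other cells, and the 5 highest cells held 57.4% of its UMIs in the mitotic cells of sGC ΔPC.

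Of the 12 genes named as lowest in sGC ΔPC 1 passed 2-fold. Gm10827, a gene model of the kind not named by the rule, was the other with at least 200 UMIs that did, at -1.54. Rarres2, chemerin, was at 5.93 CPM in sGC Ctr and 2.85 CPM in sGC ΔPC, a ratio of -1.05 (-1.41 to -0.72), but 5 cells held 82.7% of its UMIs in the mitotic cells of sGC Ctr. Lcn2, Fbln2, Postn, periostin, and Cxcl10, an interferon-induced chemokine, had ratios of -0.89, -0.80, -0.71 and -0.68, and the 5 highest cells of sGC Ctr held 79.1%, 75.2%, 74.0% and 53.5% of their UMIs. In cells with at least 20000 UMIs their ratios were -1.18, -0.84, -1.47 and -0.65, and that of Rarres2 was -1.55. Ankrd1, a target of YAP, had a UMI in 191 and 119 of the mitotic cells. It stood at 11.97 and 7.39 CPM, a ratio of -0.69 (-0.92 to -0.48), with -0.37 in the other cancer cells. Arrdc4, Tnfaip6, Zfp707, Mutyh, Cnrip1 and Nhej1 had ratios from -0.74 to -0.57. Among the cancer genes of the rule Krt18 had a ratio of -0.35 and Hmga2 of 0.25.

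Markers of other cells were present at different levels in the mitotic cells, and the rule itself limits 3 immune genes. Over single cells the median of the summed macrophage markers was 171 CPM in sGC Ctr and 254 CPM in sGC ΔPC, and 0.311% and 1.80% of the mitotic cells had no UMI of them. For the fibroblast markers the medians were 79.6 and 89.4 CPM, with 6.99% and 20.6% of the cells at 0. The median of the lymphocyte and pericyte markers was 0 in both libraries, and 95.2% and 94.6% of the mitotic cells had no UMI of 8 lymphocyte markers. Granulocyte markers summed to 33.5 and 49.6 CPM, all 6 lay above 0 in sGC ΔPC against sGC Ctr with a median of 0.60, and Csf3r passed 2-fold on 20 and 39 UMIs (of all genes 53.7% lay above 0 and 0.908% passed). In cells of 40000 to 80000 UMIs 2 of these 6 genes had enough UMIs in the mitotic cells to be measured. With at least 20000 UMIs the ratios were 0.23 for S100a9, 0.32 for S100a8, 0.27 for Retnlg, 0.56 for G0s2 and 1.36 for Csf3r. S100a9 was the most abundant, with 70.1% of its UMIs in 5 cells of sGC Ctr. The 8 fibroblast markers summed to 116 and 122 CPM, which Ly6c1 and Dpt made up for the most part, and the 8 endothelial markers to 30.5 and 33.9 CPM, nearly all from Egfl7, while Pecam1 and Cdh5 had at most 34 UMIs in a library. The 8 pericyte markers summed to 6.93 and 7.72 CPM. Fewer cells of a type among the barcodes and less RNA from each cannot be told apart in such sums. Egfl7 had a UMI in 485 and 420 of the mitotic cells, Dpt in 463 and 397 and Ly6c1 in 429 and 449, against 30 and 23 for Pecam1. Whether such RNA came from the cancer cells themselves or from other cells was not tested.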

How the data were processed

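Single-cell 3′ RNA libraries were made from tumor suspensions, 1 per condition and each pooled from 3 tumors, so variation between tumors cannot be seen. The deposited values are raw UMI counts per gene and barcode that the authors made with Cell Ranger 6.1.1 (mm10), and 0 columns of other samples were present. No deposited cell annotation was used.

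Cells were kept as the report states. CPM is from UMIs summed over cells, and log2 ratios add 0.5 counts to each sum over genes with at least 50 UMIs. Exact 95% intervals cover counting error only, since cells are not replicates, and no p-value was computed. A gene counts as higher or lower past 2-fold. Cells were also thinned to 5000 UMIs. The members and gene lists were chosen with earlier results of these data known. Doublets were not removed. Scrublet (scanpy 1.11.5) called 596 of 13166 barcodes in sGC Ctr and 0 of 22498 in sGC ΔPC, where it did not work, so a score of 0.2 was used as a limit in both libraries. The ratio script was tested on simulated data. Promoter windows were matched to RefSeq by symbol.

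Genes were named by rule: the 6 of the score, Gucy1b1 and Cspg4, the 4 with most UMIs in each list, the 12 farthest each way between mitotic and other cells with at least 200 UMIs in each library and the same sign in both, the 12 farthest each way between libraries with at least 200 UMIs in the mitotic cells and an interval off 0 (gene models named Gm or ending in Rik left out of both), and list genes past 2-fold between libraries. Further list genes were named after their values were seen. Some genes that the rule names are not reported here. Alternatives changed the limit, score, filters, gene minimum and averaging. Python 3.11.15, numpy 2.4.6, scipy 1.17.1, pandas 2.3.3 and matplotlib 3.10.9 were used.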

Additional observations from a re-analysis of the deposited data

Results flagged for a closer look

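Among the 142 named genes 44 comparisons had opposite signs in the 2 groups with both counting intervals off 0, and the 5 in which both log2 values were at least 0.5 are given here. The difference between the groups was not tested in any of them. Rarres2 had a ratio of sGC ΔPC to sGC Ctr of -1.05 in the mitotic and 1.24 in the other cancer cells, and a ratio of mitotic to other cells of 0.57 in sGC Ctr and -1.72 in sGC ΔPC. Postn had a ratio of sGC ΔPC to sGC Ctr of -0.71 in the mitotic and 0.68 in the other cells. Cxcl10 had -0.68 and 0.81 for the same pair, and 0.72 in sGC Ctr and -0.76 in sGC ΔPC between mitotic and other cells. In the mitotic cells of sGC Ctr 5 cells held 82.7%, 74.0% and 53.5% of the UMIs of Rarres2, Postn and Cxcl10.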

How the results depend on the processing

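Over 15 alternatives, of which those at 20000 and 40000 UMIs and the Scrublet limit (3) were chosen after seeing the data, 95 values stayed close, 36 moved and 0 changed sign. Close means within the exact binomial interval of a share, within the 95% order-statistic interval of a list median, or within 1.5 times of a count. The 208 genes higher in both libraries stayed within 1.5 times under all 15. Thinning to 5000 UMIs gave shares of 12.8% and 12.7%, a mitosis list median of 2.08 in sGC Ctr and of -0.19 between libraries (sGC ΔPC to sGC Ctr), and 10 genes lower in both. The top 5% gave shares of 5.80% and 4.39% and 57 genes higher in sGC ΔPC. The top 20% gave 18.2% and 21.3%, 23 genes lower in both, a median of -0.12 between libraries and 205 genes higher in sGC ΔPC. A limit within each library gave a median of -0.10 between libraries. A score of 6 other genes gave medians of 2.05 and 1.76 and of -0.0061 between libraries, with 47 genes lower in sGC ΔPC. Leaving Cenpf out of the score gave -0.088. Mitochondrial UMIs under 5% gave -0.13 and 32 lower genes. An immune sum under 100 CPM gave -0.050 and 59 higher genes. A cancer sum of at least 2000 CPM gave a median of 1.71 in sGC ΔPC and of -0.019 between libraries. A minimum of 200 UMIs per gene gave 26 genes lower in both, and 31 higher and 2 lower in sGC ΔPC. Means over cells gave a median of 2.08 in sGC Ctr, of -0.15 between libraries, and 243 higher and 66 lower genes. At least 20000 UMIs gave a median of -0.035 between libraries, and at least 40000 UMIs -0.021 with 68 higher and 32 lower genes. The causes were not tested. No paired analysis was possible because the conditions have 1 library each, and the contrast of mitotic with other cells comes from no test, since the score chose the cells. The automatic Scrublet calls were not run as an alternative, since 0 were made in sGC ΔPC. Depth limits low genes: a count of 0 in the mitotic cells allows 0.064 CPM in sGC Ctr and 0.0909 CPM in sGC ΔPC.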
